A study of Mus musculus with 12 samples.

Results

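Sphk1 encodes sphingosine kinase 1, and it was studied here together with 6 other genes of sphingolipid metabolism, Sphk2, Sgpl1, Sgpp1, Asah1, Ugcg and Sptlc2. These 7 genes were taken by their symbols in the probe table, where they had 13 of the 25697 probes. Sphk1 had been chosen because it was among the strongest rises with both ligands of the study, so its differences from serum-free medium are given as a description, with no test. The arrays measured RNA of spheroids of NMuMG, an epithelial line from normal mouse mammary gland, grown for 6 days on Matrigel from 5000 cells per well and refed on day 4. In each of the 3 groups 4 biological replicates, each a pool of 2 wells, were sampled 4 h after serum-free medium alone, GDF11 at 250 ng/mL or TGFB1 at 50 ng/mL. Both proteins belong to the secreted TGF-beta family, their doses differed, and all spheroids came from 1 cell line. The labels name no transgene or altered allele.

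Sphingolipids are built on a long-chain base that serine palmitoyltransferase makes from serine and palmitoyl-CoA. The base becomes ceramide, which cells turn into sphingomyelin or, by adding glucose, into glycosphingolipids. Ceramidases release sphingosine from ceramide, and the sphingosine kinases phosphorylate it to sphingosine 1-phosphate (S1P), a lipid that signals through G protein-coupled receptors at the cell surface. S1P is taken back to sphingosine by phosphatases or cleaved for good by S1P lyase.

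All 7 genes had at least 1 probe above background on 4 or more arrays and were tested, through 9 of their 13 probes, among 9134 genes in all. Mean raw signal separated the arrays into 4 dim ones (serum-free 1, 2 and 4 and GDF11 1, 149 to 165 scanner units) and 8 bright ones (serum-free 3, GDF11 2, 3 and 4 and every TGFB1 array, 255 to 310). Brightness thus ran partly along with the groups, and with the groups in the model 49.2% of genes differed between dim and bright arrays after normalization (limma adjusted p under 0.05). Differences are therefore given also from a model with a term for brightness. Of 7 luminal epithelial markers Krt8, Krt18, Krt19 and Cdh1 were detected on all 12 arrays, Cldn3 was detected on none and Epcam had no probe. The summed raw signal of the luminal probes ran from 4897 to 26357 in serum-free medium, from 6565 to 30332 with GDF11 and from 28468 to 31824 with TGFB1. Of 5 basal markers Krt5, Trp63 and Myh11 were detected on no array. The other 2, Krt14 and Acta2, passed the detection filter, though neither was detected on all 12 arrays. No fibroblast, endothelial, leukocyte or adipocyte marker passed this filter. The part of these marker levels in the results below was not tested, and in bulk RNA a smaller number of expressing cells cannot be told apart from less RNA per cell.

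Sphk1, the gene with the widest differences of the 7, lies on chromosome 11 (116530836 to 116536675, GRCm38.p6, RefSeq). RefSeq's promoter table holds 5 windows for it, each 250 bases before to 50 bases after a transcript start, which partly overlap. Of the 7 genes 6 had a window, 11 windows in all, and Asah1 is named only. SMAD proteins carry TGF-beta family signals to DNA and AP-1 is a common partner of theirs, so matches to their motifs in the Sphk1 windows are shown here, with the motif in capitals, 5′ to 3′ on the plus strand.
Sphk1 SMAD box pair, chr11:116531004-116531031: AGACtggaacccccctcccactggGTCT
Sphk1 AP-1 motif, chr11:116531777-116531803: agcgtgtcgcTGAGTCAccttctcgga
The first stretch holds the closest pair of the 4 SMAD boxes (GTCT, or AGAC on the other strand) of the most upstream window, beginning 96 and 72 bases before the start of that window's transcript. That window (116530850 to 116531149) lies inside the gene span given above, which begins at 116530836. The SMAD box is common: 88% of the 32851 mouse windows searched on both strands held at least 1, with a median of 2. Of the 11 windows of these genes 8 held one, and a Sphk2 window also held 4. The second stretch lies 60 to 34 bases before another Sphk1 start and holds the AP-1 motif TGANTCA, which 7.81% of all windows held. Both Sphk1 windows that cover this site counted it, and no window of Sphk2, Sgpl1, Sgpp1, Ugcg or Sptlc2 held the motif. The 7.81% is a share per window, and Sphk1 had 5 of the 11 windows, so more chances of a match than any other gene here. The Sphk1 windows with the AP-1 site held no SMAD box, and the Sphk1 window with 4 SMAD boxes held no AP-1 motif. A second SMAD motif, GGCGC, was in 36.9% of all windows. Among the Sphk1 windows it matched 1 time, in the most upstream one, against 9 matches for Sgpl1, 5 for Sgpp1 and 3 for Ugcg. The Sphk2 windows held 1 and 3, and Sptlc2 none. GC boxes (GGGCGG) and E-boxes (CANNTG) were also searched. These matches describe letters in a window and do not show that a factor bound there.

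Sphk1 phosphorylates sphingosine and is the inducible one of the pair of sphingosine kinases. Its detected probe gave raw signals of 127, 138, 193 and 124 scanner units on serum-free arrays 1 to 4. With GDF11 the signals were 446, 590, 711 and 617. With TGFB1 they were 1178, 1270, 1267 and 1191. All 3 groups were apart in raw signal, with GDF11 between the others, and the lowest GDF11 signal was on its dim array. The standard error over the 32 to 56 beads of this probe was 2.76% to 4.9% of the signal on each array, which covers the reading of an array and not the spread between samples. On the normalized log2 scale the mean was 6.99 ± 0.28 without ligand, 9.08 ± 0.42 after GDF11 and 9.77 ± 0.07 after TGFB1 (SD, n = 4). The level with GDF11 was 4.27-fold higher than in serum-free medium (log2 difference 2.10 ± 0.19, SE), and with TGFB1 it was 6.89-fold higher (2.78 ± 0.19). These differences ranked 10th and 12th from the top among 9134 genes. They were larger with the brightness term, at 2.41 ± 0.12 and 3.26 ± 0.14. Among bright arrays alone the GDF11 mean lay 2.26 and the TGFB1 mean 3.14 above the single serum-free array, and among dim arrays the single GDF11 array lay 2.57 above the serum-free mean.

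**Figure D1:**
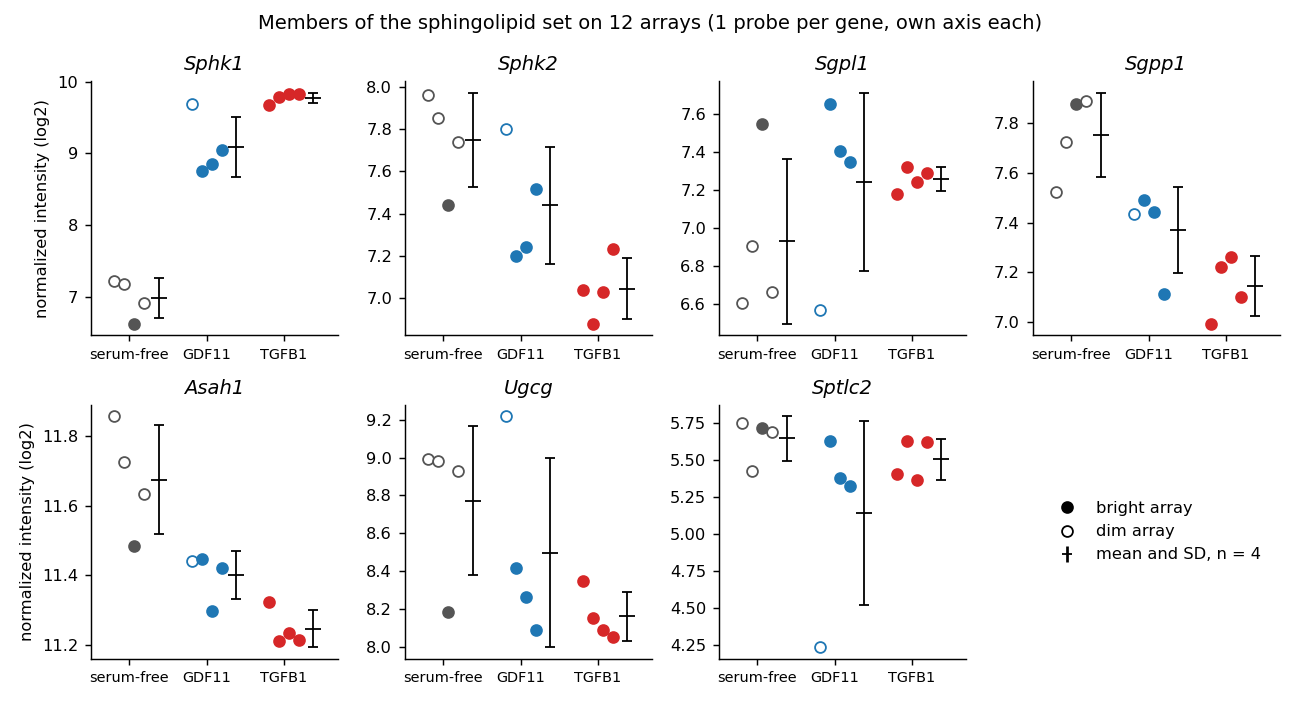
Normalized log2 intensity of the 7 genes (vertical axes, 1 probe per gene, each on its own scale) in serum-free medium, GDF11 and TGFB1, with 1 point per array, filled for bright and open for dim arrays, and bars for the mean and SD of 4 arrays. The Sphk1 means lie at 6.99, 9.08 and 9.77, while for Sgpl1 and Ugcg the open and filled points of the same group stand apart.

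The other 2 Sphk1 probes did not show this pattern. Probe ILMN_2650336 gave 78.2 to 91.6 scanner units on all 12 arrays and was detected on none. Probe ILMN_2732199 gave 74.2 to 100 and was detected on 1 array of each group. Both stayed at the background of the arrays, including the TGFB1 arrays where the detected probe read 1178 or more. The rise of Sphk1 therefore rests on 1 probe, ILMN_1232884, and which transcripts each probe matches is not given in the sources used here.

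**Figure D2:**
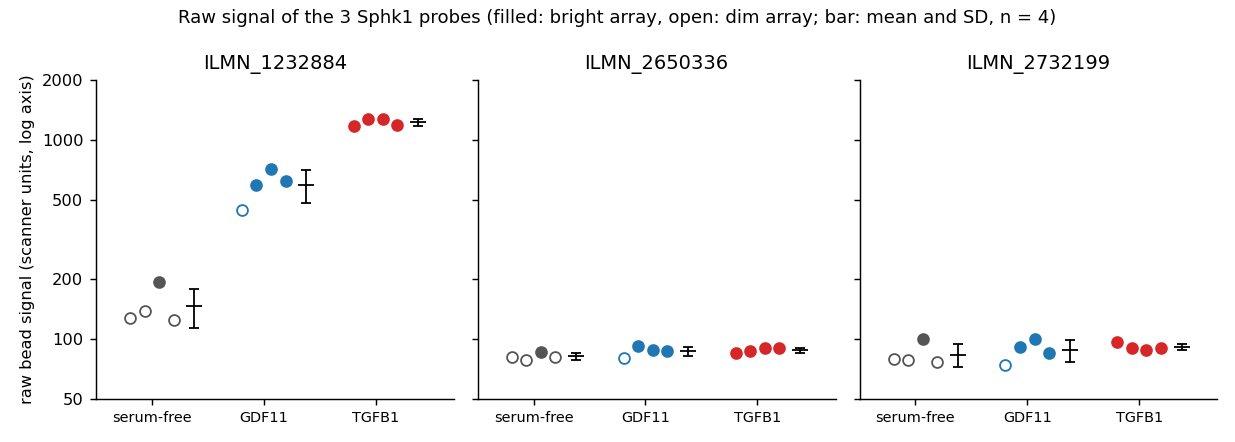
Raw bead signal in scanner units on a log axis for the 3 Sphk1 probes in each group, with 1 point per array (filled bright, open dim) and bars for the mean and SD of 4 arrays. Probe ILMN_1232884 climbed from 124 to 193 in serum-free medium to 1178 to 1270 with TGFB1, and the other probes stayed between 74.2 and 100.

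TGFB1 was set against GDF11 directly for all 7 genes, a contrast that did not choose Sphk1 but shares its arrays with those that did. Sphk1 was 0.69 ± 0.19 higher with TGFB1 on the log2 scale (1.61-fold), which did not pass over all genes (limma adjusted p = 0.168, unadjusted p = 0.00304). The normalized groups overlapped by 1 array: the dim GDF11 array stood at 9.68, and the lowest TGFB1 array at 9.67. With the brightness term the difference was 0.85 ± 0.11 and passed (adjusted p = 0.00112), and on bright arrays alone, 3 against 4, it was 0.89 (adjusted p = 0.000123). It also passed without GDF11 1 (0.89, adjusted p = 0.0111), and leaving out any other array gave an adjusted p of 0.104 to 0.484. In this contrast limma called 0.832% of all genes without the term (0.438% higher with TGFB1, 0.394% lower) and 2.51% with it (1.28% and 1.23%). None of the other 6 genes was called by limma, with or without the term, while Sphk2 alone had an unadjusted p under 0.05. Its difference was −0.39 ± 0.16 (limma adjusted p = 0.459). GDF11 and TGFB1 were given at different doses, so these differences are between the treatments as applied.

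Among the other 6 genes no call was made for GDF11 against serum-free medium, where limma called 9.93% of all genes (4.78% higher, 5.15% lower), and 2 of the 6 had an unadjusted p under 0.05. The share of all genes under that unadjusted level was not counted in any contrast, so counts by unadjusted p have nothing to be read against. For TGFB1 against serum-free medium 3 of the 6 were called, all lower: Sphk2, Sgpp1 and Asah1. In that contrast 34.4% of all genes were called, 15.7% as higher and 18.7% as lower, and with the brightness term 15.9% were called, 7.93% in each direction. With the term Sgpp1 alone of the 6 stayed past the threshold for TGFB1, and Sptlc2 alone for GDF11, where 10.4% of all genes were called (5.62% higher, 4.82% lower). The 3 lower calls are relative to the other genes: scaling each array by its median instead moved the median of all genes to 0.69 and put Sphk2, Sgpp1 and Asah1 at 0.27, 0.38 and 0.50, below that median and past no threshold. That scaling takes the median over all 25697 probes. As 41.2% to 49.6% of probes were detected per array, this median falls among undetected probes. How much of the brightness that ran along with the groups remained after it was not tested.

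Sphk2, the second sphingosine kinase, gave raw signals of 171, 181, 285 and 170 in serum-free medium, 165, 255, 288 and 263 with GDF11, and 249, 225, 241 and 260 with TGFB1. The raw signals followed brightness, with serum-free 3 as high as the bright GDF11 arrays and above every TGFB1 array. After normalization Sphk2 fell by 0.70 on the log2 scale with TGFB1 (SE 0.16, adjusted p = 0.00509), and the 4 TGFB1 arrays lay below all serum-free arrays, as they did or lay above for 33.5% of genes. With the brightness term the difference was −0.37 (adjusted p = 0.0866), and on bright arrays alone it was −0.40 (adjusted p = 0.11). With GDF11 the values were −0.31 without the term (adjusted p = 0.208) and −0.09 with it. Without GDF11 1 the GDF11 difference was −0.43 and passed (adjusted p = 0.0346). The other Sphk2 probe was detected on 3 arrays, gave 78.9 to 98 scanner units, and was not tested. Sphk1 and Sphk2 thus stood on opposite sides of 0 for TGFB1, with the Sphk2 call resting on the model without brightness.

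Sgpp1 encodes an S1P phosphatase of the endoplasmic reticulum that returns S1P to sphingosine. Its single probe read 142, 171, 358 and 181 in serum-free medium. It read 142, 292, 317 and 217 with GDF11 and 243, 269, 274 and 243 with TGFB1. The bright serum-free array was above all bright arrays of both ligands. After normalization Sgpp1 fell with TGFB1 by 0.61 on the log2 scale (SE 0.13, adjusted p = 0.00376), and the brightness term left −0.64 ± 0.15 (adjusted p = 0.011). The 4 arrays of each ligand lay below all 4 serum-free arrays. A separation in either direction was seen for 10.7% of genes with GDF11 and 33.5% with TGFB1. The GDF11 difference was −0.38 ± 0.13 and did not pass (adjusted p = 0.0767), but it did without GDF11 1 (−0.41, adjusted p = 0.0345), when limma called 36.9% of all genes. Dim and bright arrays did not differ beyond their error for this gene (0.04 ± 0.13, adjusted p = 0.832).

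Sgpl1 encodes S1P lyase, which ends the pathway by cleaving S1P. Its brighter probe read 107, 125, 302 and 116 in serum-free medium, 107, 318, 312 and 243 with GDF11, and 267, 284, 271 and 269 with TGFB1. The single bright serum-free array and the single dim GDF11 array stood with the arrays of like brightness and not with their own groups. This gene was higher on bright arrays by 0.86 ± 0.11 on the log2 scale (adjusted p = 6.16e-05). Its differences from serum-free medium were 0.31 ± 0.23 for GDF11 and 0.33 ± 0.23 for TGFB1 (adjusted p = 0.369 and 0.279) and −0.12 and −0.32 with the brightness term (adjusted p = 0.569 and 0.119). It passed for GDF11 without GDF11 1 (0.54, adjusted p = 0.0403) and for TGFB1 without serum-free 3 (0.54, adjusted p = 0.046), and with array weights over all 12 arrays for both (0.66 and 0.46, adjusted p = 0.0021 and 0.0145). In these fits limma called 36.9%, 48.8%, 49.1% and 53.4% of all genes. The second Sgpl1 probe gave −0.20 for GDF11 and −0.39 for TGFB1 (adjusted p = 0.363 and 0.0518), the opposite sign.

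Asah1, the acid ceramidase that frees sphingosine from ceramide in lysosomes, had the signals 1701, 1915, 3568 and 1716 in serum-free medium. They were 1442, 3396, 3426 and 2908 with GDF11 and 3467, 3282, 3269 and 3021 with TGFB1. On the normalized scale Asah1 fell by 0.43 with TGFB1 (SE 0.11, adjusted p = 0.0107), and all serum-free arrays lay above all arrays of either ligand. Groups were apart, in either direction, for 10.7% of all genes with GDF11 and 33.5% with TGFB1. With the brightness term the TGFB1 difference was −0.31 (adjusted p = 0.0821), and for GDF11 it was −0.27 without the term and −0.20 with it (adjusted p = 0.124 and 0.25). Without serum-free 3 the GDF11 difference passed (−0.34, adjusted p = 0.0344), when limma called 31% of all genes. A second detected Asah1 probe gave −0.05 for GDF11 and −0.03 for TGFB1 (adjusted p = 0.887 and 0.915), and the mean of both probes did not pass for TGFB1 (−0.23, adjusted p = 0.17). The third Asah1 probe was detected on no array.

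Ugcg encodes the enzyme that adds glucose to ceramide, the first step to most glycosphingolipids. It read 282, 328, 424 and 308 in serum-free medium, 344, 486, 500 and 357 with GDF11, and 513, 454, 431 and 405 with TGFB1. After normalization it was lower on bright arrays by −0.87 ± 0.11 on the log2 scale (adjusted p = 5.79e-05), and serum-free 3 stood at 8.19 while the other serum-free arrays stood at 8.93 to 8.99. Its difference for TGFB1 was −0.61 ± 0.24 and missed the threshold (adjusted p = 0.0574). With the brightness term that difference was 0.04 ± 0.13 (adjusted p = 0.88), and for GDF11 it was −0.28 without the term and 0.16 with it (adjusted p = 0.429 and 0.426). Without serum-free 3 the TGFB1 difference passed (−0.81, adjusted p = 0.00804), as it did without GDF11 1 (−0.61, adjusted p = 0.0104), when the GDF11 difference passed as well (−0.52, adjusted p = 0.041). For these 3 limma called 48.8%, 45.8% and 36.9% of all genes.

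Sptlc2 encodes a subunit of serine palmitoyltransferase, the entry enzyme of sphingolipid synthesis. Its probe was the dimmest of those tested, with 91.5, 91.4, 136 and 93.7 in serum-free medium, 78.6, 134, 130 and 112 with GDF11, and 124, 133, 123 and 131 with TGFB1. It was above background on 11 of the 12 arrays, the exception being the dim GDF11 array. That array stood at 4.24 on the normalized log2 scale and the other GDF11 arrays at 5.32 to 5.63. The GDF11 difference was −0.50 ± 0.24 (adjusted p = 0.172) and −0.83 ± 0.20 with the brightness term (adjusted p = 0.0156), but −0.27 on bright arrays (adjusted p = 0.376), where the undetected array takes no part. For TGFB1 it was −0.14 (adjusted p = 0.666) and −0.63 with the term (adjusted p = 0.0811).

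**Figure D3:**
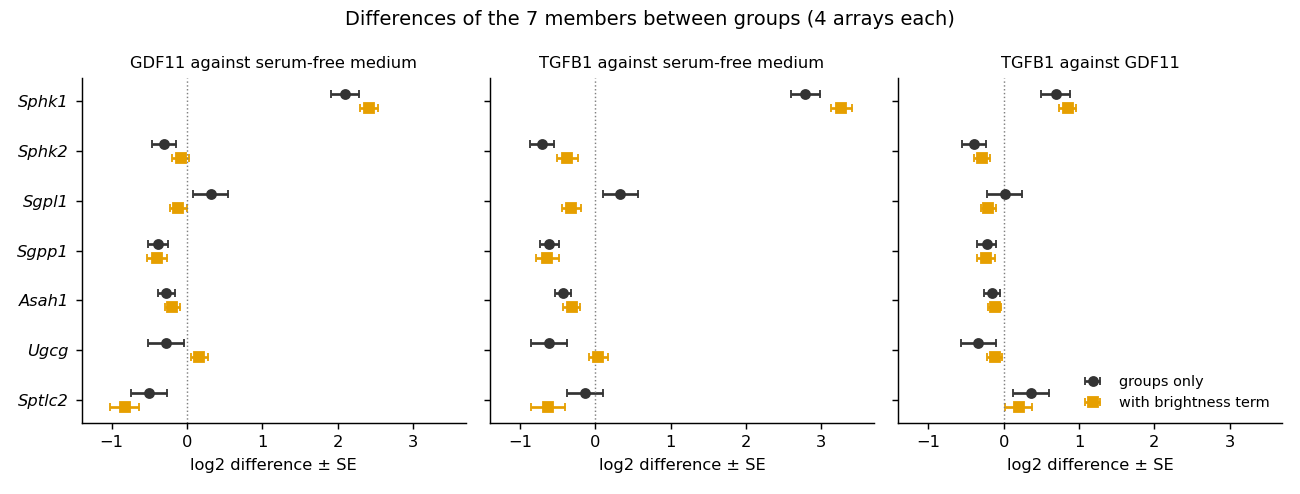
Log2 differences of the 7 genes for the 3 comparisons of groups, with SE bars, from the model of groups only (circles) and the model with the brightness term (squares), 4 arrays per group. Sphk1 lies at 2.10 and 2.78 above serum-free medium without the term and further right with it, while the Ugcg and Sgpl1 values cross 0 between the models.

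To place these genes in their pathway, 72 genes of sphingolipid metabolism and S1P signalling were listed, of which 66 had a probe and 47 were tested. The list holds the 7 genes above, and Sphk1 is left out of the counts that follow. With GDF11, 4 of 46 genes fell and none rose (8.7%, against 9.93% of all genes called in either direction and 5.15% lower). The median log2 difference was −0.15, against −0.02 over all genes. With TGFB1, 18 fell and 2 rose (43.5%, against 34.4% in either direction, 18.7% lower and 15.7% higher), and the median was −0.24 against −0.01. The brightness term left 9 lower and none higher for TGFB1 (19.6%, against 15.9% in either direction and 7.93% lower), with a median of −0.17. Of those 9, 7 were among the 18, with Hexa a further one. For GDF11 the term gave 5 lower, the same 4 and Sptlc2, and none higher (10.9%, against 10.4% in either direction and 4.82% lower). For TGFB1 against GDF11 limma called none without the term (7 had an unadjusted p under 0.05) and 2 with it, both lower with TGFB1: Acer3 (−0.50, adjusted p = 0.0422) and the hexosaminidase subunit gene Hexa (−0.49, adjusted p = 0.0315). Those 2 were 4.35% of the 46 genes, against 2.51% of all genes called in either direction and 1.23% lower. The counts for GDF11 moved with single arrays, with 12 lower without either serum-free 3 or GDF11 1 and, Sphk1 counted in, 4 and 7 higher. The share called among all genes rose too, from 9.93% to 31% and 36.9%.

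The S1P genes of the list, beside Sphk1, gave 5 lower of 9 with TGFB1 (18.7% of all genes were lower), 3 of them also with the brightness term (7.93% of all genes). Sgpp2, the second S1P phosphatase, was the member that changed most. It read 97.6, 106, 149 and 105 scanner units in serum-free medium, 84.7, 114, 123 and 105 with GDF11, and 98.2, 106, 116 and 110 with TGFB1, detected on all 12 arrays though close to background. On the normalized scale it fell by 1.09 with GDF11 and by 1.26 with TGFB1 (SE 0.14 each, adjusted p = 0.000209 and 1.84e-05), with −1.05 and −1.195 under the brightness term (adjusted p = 0.000265 and 0.000148). Its groups did not overlap with those of serum-free medium, as was so for 10.7% of all genes with GDF11 and 33.5% with TGFB1. Aldh3a2, the fatty aldehyde dehydrogenase that oxidizes the aldehyde freed by S1P lyase, fell by 1.14 with TGFB1 (adjusted p = 0.00107) and by 0.61 with the term (adjusted p = 0.00454). Its GDF11 difference was −0.63 (adjusted p = 0.0629), and it passed without serum-free 3 (−0.79, adjusted p = 0.00957) or GDF11 1 (−0.83, adjusted p = 0.00306). Those fits called 31% and 36.9% of all genes. Under median scaling the calls of both genes ended: Sgpp2 was at −0.48 for GDF11 and −0.55 for TGFB1 (adjusted p = 0.282 and 0.0834), and Aldh3a2 at −0.19 for TGFB1 (adjusted p = 0.426).

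Plpp3, a lipid phosphate phosphatase that acts on S1P and lysophosphatidic acid outside the cell, fell by 0.79 with TGFB1 (adjusted p = 0.0048), with −0.34 under the term (adjusted p = 0.0612) and −0.22 from its other probe (adjusted p = 0.471). The GDF11 difference of Plpp3 was −0.43 (adjusted p = 0.126). It passed without serum-free 3 (adjusted p = 0.0146, 31% of all genes called) or GDF11 1 (adjusted p = 0.0145, 36.9% called). Under median scaling the TGFB1 difference of Plpp3 was 0.19. Plpp1 and Plpp2, of the same family, stood at −0.05 and 0.20 for TGFB1 and at −0.03 and 0.08 for GDF11 (adjusted p = 0.825, 0.329, 0.905 and 0.738), though another Plpp1 probe gave 0.76 for GDF11 and 0.60 for TGFB1 (adjusted p = 0.0408 and 0.0454). Of the 5 S1P receptor genes only S1pr2 passed the detection filter, and it did not pass the test with GDF11 (0.14, adjusted p = 0.745) or TGFB1 (0.45, adjusted p = 0.217). The genes S1pr1, S1pr3 and S1pr4 were detected on no array and S1pr5 on 3 at most. The S1P transporter gene Mfsd2b was detected on none, and Spns2 had no probe in the table.

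Outside the S1P genes the widest falls were those of Acer3, Sgms2 and Neu1. Acer3, an alkaline ceramidase, read 2183, 2759, 3576 and 2393 in serum-free medium, 1263, 2309, 2400 and 1493 with GDF11, and 1557, 1770, 1706 and 1330 with TGFB1. Among bright arrays the serum-free one was above all others in raw signal. Acer3 fell by 1.22 with GDF11 and by 1.87 with TGFB1 on the log2 scale (SE 0.20 each, adjusted p = 0.00153 and 1.57e-05), with −0.90 and −1.39 under the term (adjusted p = 0.000523 and 2.4e-05). Its second probe gave −0.24 and −0.40 (adjusted p = 0.584 and 0.275), and −0.76 and −1.18 with the term (adjusted p = 0.00261 and 0.000127).

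Sgms2, the plasma membrane sphingomyelin synthase, fell by 1.19 with GDF11 and by 1.15 with TGFB1 (adjusted p = 0.00125 and 0.000581), and by 1.13 and 1.07 with the term (adjusted p = 0.00264 and 0.00635). It was detected on all serum-free arrays, on 2 GDF11 arrays and on 3 TGFB1 arrays, so these sizes were read near background. Neu1, the lysosomal sialidase, fell by 0.77 and 1.22 (adjusted p = 0.0039 and 3.57e-05), and by 0.57 and 0.92 with the term (adjusted p = 0.00298 and 0.000116). On bright arrays alone the GDF11 difference of Neu1 did not pass (−0.48, adjusted p = 0.0576). The other ceramide and sphingomyelin genes that fell with TGFB1 were Smpd1, the acid sphingomyelinase (−0.66), the neutral ceramidase Asah2 (−0.64), the sphingomyelin synthase Sgms1 (−0.51) and Asah1, and none of these 4 passed with the term. Smpd1 had other probes: ILMN_2728521 passed for TGFB1 without and with the term (−1.05 and −0.76, adjusted p = 0.000333 and 0.00384) and for GDF11 without it (−0.62, adjusted p = 0.0271), while ILMN_1245356 did not pass (−0.35 for TGFB1, adjusted p = 0.0992). Under median scaling, where the median of all genes was 0.39 for GDF11 and 0.69 for TGFB1, the GDF11 calls of Acer3, Sgms2 and Neu1 ended (−0.69, −0.65 and −0.25, adjusted p = 0.147, 0.15 and 0.476). For TGFB1 that of Neu1 ended as well (−0.27, adjusted p = 0.356), and Acer3 and Sgms2 were at −0.93 and −0.59 and passed.

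In the first steps of synthesis 3 of 10 tested genes fell with TGFB1 and none with GDF11 in the model without the brightness term. Called in either direction were thus 30% and 0%, against 34.4% and 9.93% of all genes, of which 18.7% and 5.15% were lower. The 3 genes were Kdsr, which reduces the first sphingoid base (−0.59), the serine palmitoyltransferase subunit Sptssa (−0.46) and the dihydroceramide desaturase Degs1 (−0.38). With the term Sptssa alone passed (−0.45, adjusted p = 0.0496). With a replicate block and the term Sptssa did not pass (−0.36, adjusted p = 0.251), and on bright arrays it was at −0.39. Among the glycosphingolipid genes B3galt4 and Psap fell beside Neu1 with TGFB1 (−0.54 and −0.41), and Gba2 and Arsa, a glucosylceramidase outside the lysosome and the arylsulfatase of sulfatide, rose (0.71 and 0.55). A second B3galt4 probe gave 0.17 (adjusted p = 0.466), and the mean of both did not pass (−0.18, adjusted p = 0.276). B3galt4, Psap, Gba2 and Arsa did not pass with the term, where Gba2 was at 0.515 and Arsa at 0.251. Gba2 was detected on 1 serum-free array. On bright arrays Gba2 stood at 4.31 on serum-free 3 and at 4.91 to 5.23 with TGFB1, while the Arsa difference was 0.055. Several of these calls ended when 1 array was left out: that of Kdsr without serum-free 1, 2 or 4, GDF11 2 or 3 or any TGFB1 array (adjusted p up to 0.125), and that of Degs1 without serum-free 4 or TGFB1 1 or 3 (up to 0.0614). Sgms1 lost its call without serum-free 1, 2 or 4, GDF11 2 or any TGFB1 array (up to 0.118), Psap without serum-free 1, 2 or 4 or any TGFB1 array (up to 0.0939), and B3galt4 without serum-free 1 or 2 or any TGFB1 array (up to 0.114). Arsa lost it without serum-free 1 or 2 or TGFB1 2, 3 or 4 (up to 0.0665).

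**Figure D4:**
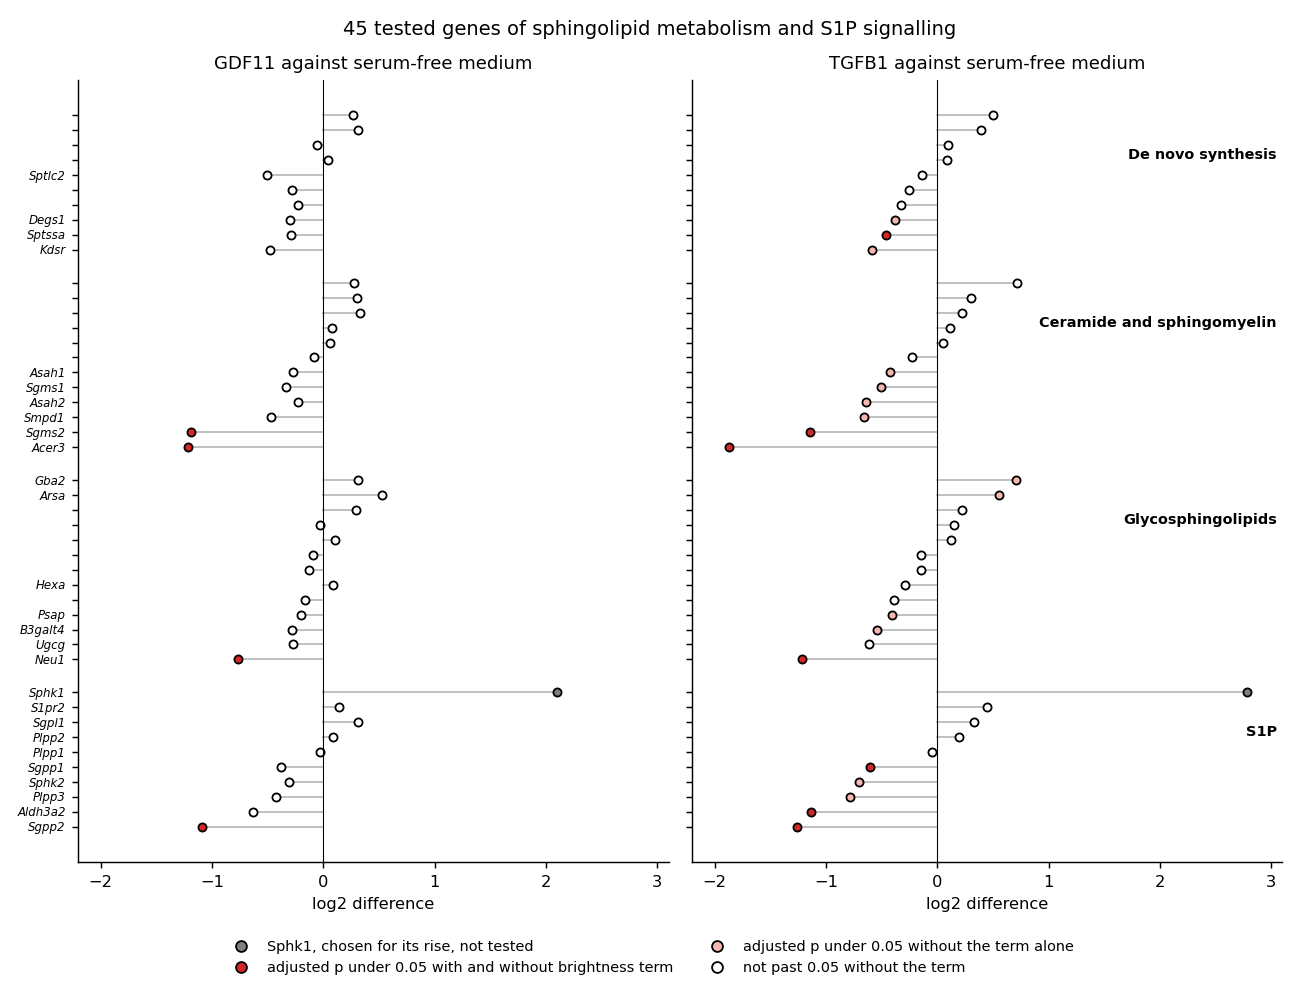
Log2 differences (horizontal axis) of 45 of the 47 tested list genes (those named in the text are labelled) for GDF11 and TGFB1 against serum-free medium, grouped by their place in the pathway, with dark red for genes past an adjusted p of 0.05 with and without the brightness term, light red for those past it without the term alone, grey for Sphk1 and white for the rest. Sphk1 stands at 2.10 and 2.78, far right of every other gene, and Acer3 at −1.22 and −1.87 on the left.

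The genes whose normalized levels followed Sphk1 most closely over the 12 arrays were Sh3bp2, an SH3-domain binding adaptor (Pearson r = 0.991), the claudin gene Cldn4 (0.99), the Wnt ligand gene Wnt7a (0.989), Ier3 (0.987) and the kinase gene Dyrk3 (0.985). These are the highest of the 9134 genes by this measure, and the points share the 12 arrays and 3 groups, so the values describe the order of the groups more than that of single arrays. Once a brightness term was taken out, the closest were Cldn4 (0.994), Sh3bp2 (0.994), LOC100047934 (0.992), Wnt7a (0.992) and Dyrk3 (0.99). Cldn4 had the widest log2 differences of these, 2.80 for GDF11 and 3.92 for TGFB1, followed by Dyrk3 with 1.82 and 2.56, and Ier3 and LOC100047934 had the narrowest (0.85 and 1.04, 0.76 and 1.03).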

How the data were processed

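RNA of 12 spheroid samples was read on 1-colour Illumina beadchips. Per the file headers, the deposited raw table gives for each probe the mean intensity of its beads, linear and not background-subtracted as the values show, the bead standard error, a detection p-value and, as another measure, the bead number. The table of values the authors normalized is taken as log2 from its range; its transformation is not stated, and the submitters' processing notes name lumi without a role.

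Intensities were background-corrected, quantile-normalized and log2-transformed with neqc (limma 3.58.1, R 4.3.3, offset of 16, which narrows differences of dim probes). A probe was kept if detected (p under 0.05) on 4 or more arrays, and the kept probe of highest mean stood for its gene (9134 genes). lmFit and eBayes were run on all 12 arrays with 1 mean per group, and p-values were adjusted by Benjamini-Hochberg over all genes, with calls under 0.05. The fit was also run on simulated data that held no split by brightness, so that run cannot show how brightness bears on the calls. Bright and dim arrays were split at the widest gap in mean raw signal. Array symbols were matched to RefSeq names (GRCm38.p6): 14307 were current, 2906 were synonyms and 904 were kept. Promoter windows are RefSeq's. The number of arrays limits precision, and whether replicates came from separate passages is not stated, so p-values measure the spread between these samples.

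The members, the pathway list, the motifs, the tests and the split by brightness were chosen with earlier results of these data known. Genes named are the 7 members, all tested S1P genes of the list, and per comparison the 4 widest called rises and falls of the list. To these come the 5 genes most correlated with Sphk1. The other genes were named after their values were seen. Replicate numbers were not treated as pairs: deviations of arrays with the same number correlated between −0.33 and 0.61 across groups. Alternatives were median scaling, cyclic loess, an offset of 50, uncorrected background, the authors' values, other filters and probe rules, fits on pairs of groups or bright arrays, a brightness term, a replicate block, array weights and leaving out each array. Drawing used Python 3.11.15 with matplotlib 3.10.9. The pathway counts cover all 47 tested genes of the list, and the text gives single values for 27 of them. Of the others, 2 are not reported here.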

Additional observations from a re-analysis of the deposited data

Results flagged for a closer look

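Of 21 groups of 4 arrays (7 genes in 3 groups), 2 held an array far from the others, where chance gives about 1 in 20. For Ugcg in serum-free medium, replicate 3 stood at 8.19 on the normalized log2 scale against 8.93 to 8.99 on the others, a gap of 0.921 of the group's range. This is the only bright serum-free array. For Sgpp1 with GDF11, replicate 4 stood at 7.11 against 7.43 to 7.49, a gap of 0.856 of the range, and it was a bright array like replicates 2 and 3.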

How the results depend on the processing

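The GDF11 and TGFB1 differences of Sphk1 were positive under all 15 settings and without each array. Against the within-group SD of 0.29, the GDF11 difference moved to 1.56 without background correction, 2.66 under median scaling, 1.54 with the authors' processed values, 2.41 with the brightness term and 2.42 with a replicate block and the term, and the TGFB1 difference to 2.17, 3.78, 2.18, 3.26 and 3.27 under these and to 3.14 on bright arrays. Leaving out arrays gave 1.90 to 2.21 and 2.66 to 2.86. For TGFB1 against GDF11 the Sphk1 difference passed under median scaling (1.12, adjusted p = 0.0314), the brightness term (0.85), bright arrays alone (0.89), the replicate block with the term (0.85, adjusted p = 0.0103) and array weights (0.88, adjusted p = 2.02e-05), and lay between 0.58 and 0.89 without single arrays.

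The other members called with GDF11, 0 in the model of groups only, numbered 2 without background correction, 1 with the authors' values, 1 with the brightness term, 1 with a replicate block and the term and 5 with array weights (0 to 4 without single arrays), but array weights called 49.1% of all genes and the fit without GDF11 1, which gave the 4, 36.9%, against 9.93%. Of all genes 10.2% were called without background correction and 9.56% with the authors' values. With the term it was 10.4%, and with the block and term 7.12%. For TGFB1, 3 became 0 under median scaling, 1 with the term, 0 with the replicate block and the term and 5 with array weights. Without single arrays the count was 3 to 5. In these 4 settings limma called 46.9%, 15.9%, 11.5% and 53.4% of all genes, and without serum-free 3 it called 48.8%, against 34.4%. For TGFB1 against GDF11 the count was 0 in all of these. With the replicate block alone the TGFB1 count was 4, as Ugcg passed (−0.61, adjusted p = 0.0277), and 36.1% of all genes were called. With the block and the term Sgpp1 did not pass for TGFB1 (−0.47, adjusted p = 0.108). On bright arrays alone the TGFB1 differences were −0.40 for Sphk2, −0.73 for Sgpp1 and −0.24 for Asah1. Serum-free medium had 1 array in that setting and so no spread of its own, and no count against it is given.

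In the pathway list, Sphk1 included, genes lower with GDF11 went from 4 to 8 without background correction, 0 under median scaling, 7 with the authors' values and 19 with array weights (4 to 12 without single arrays), and genes higher from 1 to 9 with array weights (1 to 7), while calls over all genes rose to 49.1% with array weights. Without background correction, under median scaling and with the authors' values limma called 10.2%, 2.08% and 9.56% of all genes, against 9.93%. Without single arrays it called 4.86% to 36.9%. With TGFB1 list genes lower went from 18 to 2 under median scaling, 9 with the term and 6 with the replicate block and the term (12 to 20). List genes higher went from 3 to 11 under median scaling, 1 with the term, 1 with the block and term, and 8 with array weights (2 to 5). In these 4 settings limma called 46.9%, 15.9%, 11.5% and 53.4% of all genes, against 34.4%. Without single arrays it called 22.4% to 48.8%. Serum-free medium had 1 bright array, so list counts against it on bright arrays alone are not given. For TGFB1 against GDF11 the count higher went from 0 to 1 under median scaling, the term, bright arrays, the block with the term and array weights (0 to 1), and the count lower from 0 to 2 with the term, 4 on bright arrays, 1 with the block and term and 5 with array weights (0 to 0). For this contrast limma called 0.832% of all genes in the model of groups only and 0.35% under median scaling. It called 2.51% with the term, 5.87% on bright arrays (3 against 4) and 2.2% with the block and term. With array weights it called 7.38%, and without single arrays 0.208% to 1.19%. The cause of the moves in these counts was not tested.

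Median scaling moved the median of all genes to 0.69 for TGFB1 and 0.39 for GDF11 and made 97.5% and 92.6% of called genes higher, against 45.7% and 48.2% before. For TGFB1 against GDF11 the share higher went from 52.6% to 96.9%, and to 72.5% with the authors' values. Under it the TGFB1 differences of Sptssa (0.50), Kdsr (0.37), Degs1 (0.56), Asah1 (0.50), Asah2 (0.28), Sgms1 (0.47), Smpd1 (0.32), Psap (0.53), Sphk2 (0.27), Sgpp1 (0.38) and Plpp3 (0.19) turned positive, all below that median. Changes of sign in genes that passed in neither setting are not counted. The median used for this scaling falls among undetected probes, and the part of array brightness in its differences was not tested. The 2 undetected Sphk1 probes and the Sptlc2, Sgpp2 and Sgms2 probes lie near background, which limits what their sizes show.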
